A study of Mus musculus with 16 samples.

Results

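The 6 keratin-associated protein genes of the mouse hair named here were examined in whole skin in which β-catenin signalling had been switched on in the epidermis: Krtap4-16, Krtap8-1, Krtap6-1, Krtap12-1, Krtap14 and Krtap15. Their probe sets were found by gene symbol, keeping those annotated with a single symbol. Of the 6 genes, 5 had such a probe set, and Krtap12-1 had 2, which gave 6 probe sets in all. They were 5 of 12393 genes with a probe set of their own on the array. Krtap6-1 was represented only by a probe set shared by 3 symbols and was not analysed here.

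The transgenic mice, K14deltaNB-cateninER line D2, carried β-catenin lacking its N-terminus, joined to a hormone-binding portion of the oestrogen receptor. The keratin 14 promoter directs such a transgene to basal keratinocytes, and 4-hydroxytamoxifen (4OHT) activates the fusion protein. Transgenic skin was taken on day 0, 1 and 7 of 4OHT, with 2, 3 and 3 arrays, and skin of wild-type C57BL/6 mice on the same days, with 3, 3 and 2 arrays. Both genotypes received 4OHT, and no array of a vehicle alone was included, so 4OHT and time cannot be told apart within a genotype. One transgenic line was used, and the labels give no age. The labels of 3 wild-type arrays name a single mouse and those of the other arrays name mice, so pooling of animals is not settled. The spread that the p-values rest on may be technical.

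Keratin-associated proteins are made late in the differentiation of the hair shaft, in the cortex and cuticle cells that leave the hair matrix. They fill the space between the keratin filaments and are cross-linked to them through cysteines, which hardens the fibre. Their genes lie in clusters, are short, and resemble each other closely within a family, so that a probe set may also read a relative. In textbook accounts of hair growth, β-catenin acts with LEF and TCF factors in the follicle epithelium that forms the shaft.

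The genes lie in 3 of the mouse clusters. On GRCm38.p6, RefSeq places Krtap4-16 at chr11:99850655-99851605, Krtap12-1 at chr10:77720586-77721256 and Krtap8-1 at chr16:89487374-89487952. Krtap14 lies at chr16:88825291-88826145 and Krtap15 at chr16:88829009-88829844, with 2863 bases between them. The 250 bases before the annotated start are shown for 4 of the 5 genes analysed, Krtap12-1 being named only, to compare the letters that these promoters share. They are RefSeq sequences of GRCm38.p6, written along the strand of the gene, at chr11:99851606-99851855 (minus strand) for Krtap4-16, chr16:89487953-89488202 (minus strand) for Krtap8-1, chr16:88826146-88826395 (minus strand) for Krtap14 and chr16:88828759-88829008 (plus strand) for Krtap15. Capitals mark TATAA, the core of a TATA box, searched on the strand of the gene. They also mark CTTTGA, one form of the core that LEF and TCF factors bind, searched on both strands. Other forms of that core were not searched and are unmarked where present.
Krtap4-16: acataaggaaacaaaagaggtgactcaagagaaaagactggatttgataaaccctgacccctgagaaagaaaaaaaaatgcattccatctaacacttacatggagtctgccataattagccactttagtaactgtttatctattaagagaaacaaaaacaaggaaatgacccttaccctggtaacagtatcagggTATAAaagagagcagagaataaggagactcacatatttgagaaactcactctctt
Krtap8-1: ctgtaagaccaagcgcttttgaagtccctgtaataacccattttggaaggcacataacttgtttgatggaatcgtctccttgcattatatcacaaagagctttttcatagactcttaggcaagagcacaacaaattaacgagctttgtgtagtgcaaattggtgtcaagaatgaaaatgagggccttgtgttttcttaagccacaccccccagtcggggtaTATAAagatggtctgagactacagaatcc
Krtap14: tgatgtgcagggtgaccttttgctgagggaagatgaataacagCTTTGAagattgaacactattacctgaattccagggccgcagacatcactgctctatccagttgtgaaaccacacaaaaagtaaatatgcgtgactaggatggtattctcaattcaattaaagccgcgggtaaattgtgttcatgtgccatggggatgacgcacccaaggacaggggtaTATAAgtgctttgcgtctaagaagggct
Krtap15: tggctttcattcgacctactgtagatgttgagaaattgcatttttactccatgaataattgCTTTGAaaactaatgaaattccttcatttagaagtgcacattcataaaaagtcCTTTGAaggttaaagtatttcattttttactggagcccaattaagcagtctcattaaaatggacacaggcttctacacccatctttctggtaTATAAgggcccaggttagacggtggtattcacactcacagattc

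All 4 promoters held TATAA, which was present in 16% of 32851 RefSeq promoters of the same length and in 50 of 51 Krtap promoters (98%). Its first base lay 29 bases before the start in Krtap8-1, 28 in Krtap14, 44 in Krtap15 and 55 in Krtap4-16. TATAA with its first base 20 to 40 bases before the start was found in Krtap8-1 and Krtap14, in 3.52% of all promoters and in 36 Krtap promoters (70.6%). CTTTGA occurred once in Krtap14, with its first base 207 bases before the start, and at 189 and 136 bases in Krtap15, the neighbour of Krtap14. It was present in 13.8% of all promoters and in 12 Krtap promoters (23.5%). The motifs do not overlap each other in these windows. They were chosen after the sequences had been read, and a match is a description of the letters.

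Before the results, the arrays were checked against their labels. Esr1, part of which is in the transgene, read between 80.7 and 408 on the 8 transgenic arrays and between 13.3 and 50.0 on the 8 wild-type arrays. Trimmed mean intensities ranged from 359 to 548 before scaling, and replicate arrays correlated between 0.974 and 0.988 over all genes. Intensities below are scaled values, and log2 changes were taken after 32 had been added, which understates the change of dim genes. Tests are from limma across 9058 genes and all 16 arrays, two-sided, with Benjamini-Hochberg adjustment and a threshold of 0.05. For a gene, the brightest of its probe sets was used.

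The 5 genes rose in transgenic skin at day 7 and passed the test in no comparison without those arrays. In all 6 probe sets, the 3 transgenic day 7 arrays were above each of the 13 other arrays, a separation that 14.8% of all genes showed. All 5 genes passed the test against transgenic day 0, where 18.6% of all genes tested rose. They also passed it against transgenic day 1 (21.5% of genes rose) and against wild-type day 7 (19.5%). Only the brighter Krtap12-1 probe set was above the filter on dim probe sets on all 16 arrays. The other 4 genes passed that filter through their transgenic day 7 arrays alone, Krtap14 and Krtap15 through 2 of the 3. Their values on the 13 other arrays were below the 40th percentile, so their log2 changes depend on the added value and no ratio of intensities between groups is given for them. A fit without the filter, over 12393 genes, was therefore made as well, and there the 5 genes also passed against transgenic day 0 (14.4% of genes rose) and wild-type day 7 (14.8%), with adjusted p-values no higher than 0.00803.

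**Figure D1:**
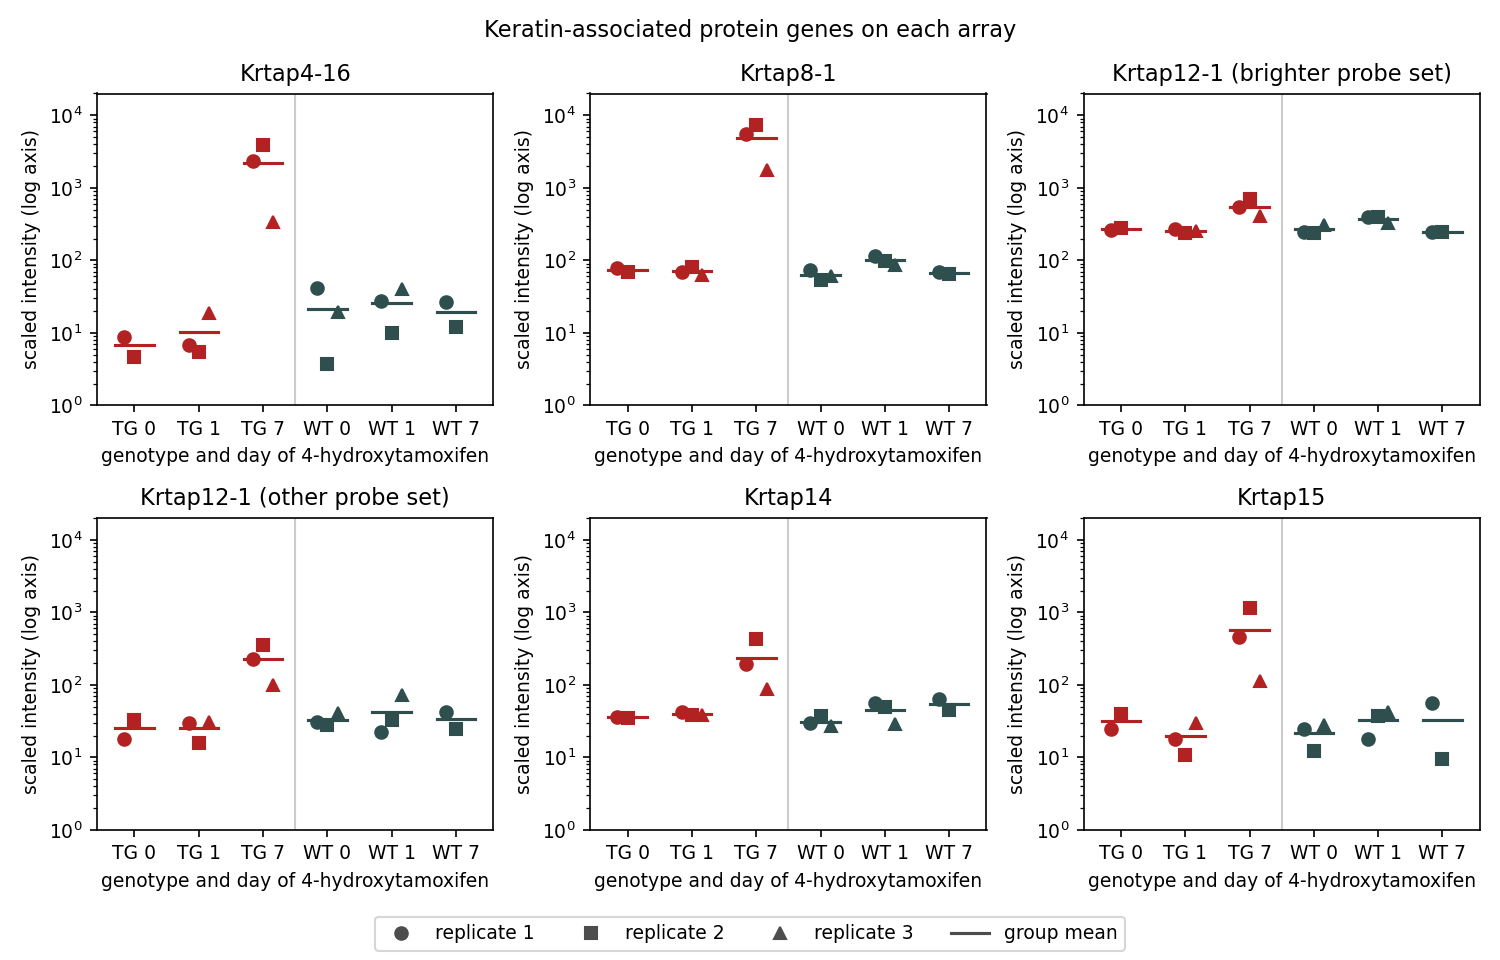
Scaled intensity (log axis) of each probe set on each array, in transgenic (TG) and wild-type (WT) skin at day 0, 1 and 7 of 4OHT, with points for replicates and lines for group means. The 3 TG day 7 points lie above all 13 other points in each panel, replicate 2 highest and replicate 3 lowest.

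Krtap4-16 belongs to a family of ultra-high-sulphur proteins in human classification, the most cysteine-rich of the group. Its intensity in transgenic skin was 8.75 and 4.64 at day 0, 6.74, 5.46 and 18.6 at day 1, and 2355, 3868 and 343 at day 7. In wild-type skin it was 41.7, 3.73 and 19.1 at day 0, 27.4, 10.0 and 40.1 at day 1, and 27.0 and 11.9 at day 7. The gene was dim on all arrays outside transgenic day 7, and its lowest array there was still above all of them. It averaged 2189 ± 1769 at transgenic day 7 (SD, n = 3), against 6.69 ± 2.90 at transgenic day 0 (n = 2) and 19.4 ± 10.7 at wild-type day 7 (n = 2). The log2 change was 5.29 ± 0.65 against transgenic day 0 (SE, adjusted p = 1.17e-05 by limma) and 4.90 ± 0.65 against wild-type day 7 (adjusted p = 2.98e-05). Replicate 2 was 11.3 times replicate 3. Without replicate 3 the change against transgenic day 0 was 6.30, and without replicate 2 it was 4.61.

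Krtap8-1 encodes a small protein rich in glycine and tyrosine, a class found in the cortex of the hair. It read 79.1 and 69.1 at day 0, 68.4, 80.0 and 63.3 at day 1, and 5484, 7398 and 1773 at day 7 in transgenic skin. In wild-type skin it read 73.0, 53.9 and 60 at day 0, 114, 99.1 and 86.6 at day 1, and 69.3 and 65.5 at day 7. The 13 arrays outside transgenic day 7 lay between 53.9 and 114, and the change at transgenic day 7 had the smallest adjusted p of the 5 genes. The mean of 4885 ± 2860 at transgenic day 7 (SD, n = 3) stood against 74.1 ± 7.03 at transgenic day 0 (n = 2) and 67.4 ± 2.65 at wild-type day 7 (n = 2). The log2 change was 5.31 ± 0.37 against transgenic day 0 (SE, adjusted p = 5.09e-08 by limma) and 5.40 ± 0.37 against wild-type day 7 (adjusted p = 5.93e-08). Replicate 2 was 4.17 times replicate 3. The change against transgenic day 0 was 5.92 without replicate 3 and 4.90 without replicate 2.

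Krtap14 and Krtap15 are the adjacent pair on chromosome 16, high-sulphur proteins in human classification that RefSeq also lists under the names Pmg1 and Pmg2. Krtap14 read 35.9 and 35.0 at day 0, 41.8, 37.8 and 38.8 at day 1, and 192, 430 and 88.5 at day 7 in transgenic skin. In wild-type skin it read 29.3, 37.1 and 26.7 at day 0, 56.7, 50.1 and 28.7 at day 1, and 63.6 and 45.4 at day 7. The lowest transgenic day 7 array, 88.5, was above the highest other array, 63.6, so the groups did not overlap. Krtap15 read 24.4 and 40 at day 0, 17.9, 10.7 and 29.9 at day 1, and 452, 1141 and 112 at day 7 in transgenic skin. In wild-type skin it read 24.8, 12.3 and 28.3 at day 0, 17.8, 37.3 and 42.5 at day 1, and 55.7 and 9.63 at day 7. Its lowest transgenic day 7 array, 112, was also above all others, of which wild-type day 7 replicate 1 was the highest.

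Krtap14 averaged 237 ± 175 at transgenic day 7 (SD, n = 3), against 35.4 ± 0.656 at transgenic day 0 (n = 2) and 54.5 ± 12.9 at wild-type day 7 (n = 2). Its log2 change was 1.78 ± 0.37 against transgenic day 0 (SE, adjusted p = 0.00126 by limma) and 1.43 ± 0.37 against wild-type day 7 (adjusted p = 0.00586). The wild-type comparison lost its call without wild-type day 7 replicate 2 (log2 1.28, adjusted p = 0.0575) and when only the 2 groups compared were fitted (log2 1.43, adjusted p = 0.0508). Krtap15 averaged 568 ± 525 at transgenic day 7, against 32.2 ± 11 at transgenic day 0 and 32.6 ± 32.6 at wild-type day 7. Its log2 change was 2.77 ± 0.57 against transgenic day 0 (adjusted p = 0.00128) and 2.84 ± 0.57 against wild-type day 7 (adjusted p = 0.00106). The ratio of replicate 2 to replicate 3 was 4.86 for Krtap14 and 10.2 for Krtap15. Both ratios rest on replicate 3 values, 88.5 and 112, that were below the 40th percentile of that array. Without replicate 3 the changes against transgenic day 0 were 2.25 for Krtap14 and 3.56 for Krtap15, and without replicate 2 they were 1.28 for Krtap14 and 2.05 for Krtap15.

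Krtap12-1, a high-sulphur protein gene of the chromosome 10 cluster, changed least by its brighter probe set. That probe set read 265 and 276 at day 0, 272, 236 and 252 at day 1, and 552, 701 and 403 at day 7 in transgenic skin. In wild-type skin it read 249, 242 and 310 at day 0, 392, 400 and 323 at day 1, and 245 and 249 at day 7. The lowest transgenic day 7 array, 403, was only just above the highest wild-type day 1 array, 400. The mean was 552 ± 149 at transgenic day 7 (SD, n = 3), against 270 ± 7.59 at transgenic day 0 (n = 2) and 247 ± 2.70 at wild-type day 7 (n = 2). The log2 change was 0.92 ± 0.17 against transgenic day 0 (SE, adjusted p = 0.000504 by limma) and 1.03 ± 0.17 against wild-type day 7 (adjusted p = 0.000199). Without transgenic day 7 replicate 3 the change against transgenic day 0 was 1.11, and without replicate 2 it was 0.74.

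The dimmer Krtap12-1 probe set read 227, 359 and 100 at transgenic day 7, against 17.9 and 32.7 at transgenic day 0 and 42.1 and 24.5 at wild-type day 7. It read 29.9, 15.8 and 31.2 at transgenic day 1, 30.5, 27.9 and 41.3 at wild-type day 0, and 22.5, 32.8 and 72.0 at wild-type day 1. Both probe sets rose, and they disagreed in size. When every probe set was fitted separately without the filter, an alternative added after the data had been seen, the dimmer one had a log2 change of 2.06 ± 0.36 against transgenic day 0 (SE, adjusted p = 0.00062 by limma). The brighter one had changed by 0.92.

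**Figure D2:**
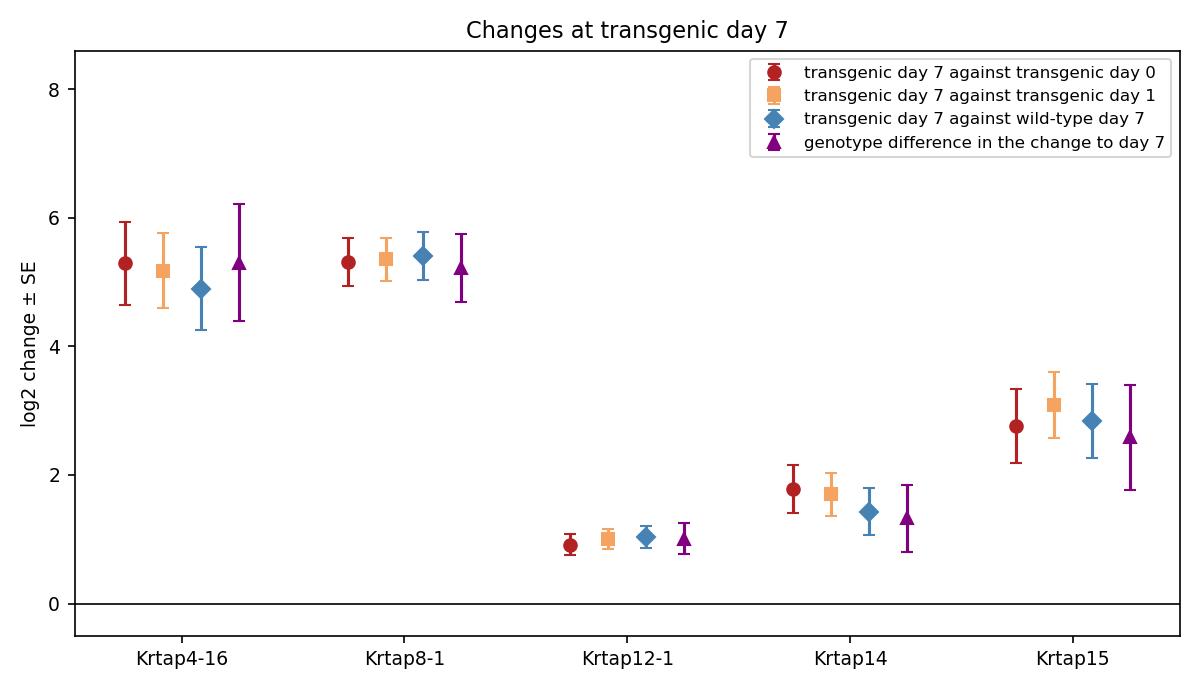
Log2 change ± SE of the 5 genes at transgenic day 7 against transgenic day 0, transgenic day 1 and wild-type day 7, and the genotype difference in the change to day 7. Krtap4-16 and Krtap8-1 lie near 5, Krtap15 near 3 and Krtap12-1 near 1.

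Against transgenic day 1, which shares the transgenic day 7 arrays with the other comparisons, the log2 change was 5.18 ± 0.58 for Krtap4-16 and 5.36 ± 0.33 for Krtap8-1 (SE). It was 3.09 ± 0.51 for Krtap15, 1.70 ± 0.33 for Krtap14 and 1.00 ± 0.15 for Krtap12-1, with adjusted p-values by limma between 1.62e-08 and 0.000692. Krtap12-1 was lowest by its brighter probe set only, since the dimmer one changed by 2.05.

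The comparison with wild-type skin asked whether the change to day 7 differed between the genotypes. It did for 4 of the 5 genes, against 12.1% of all genes tested with a higher change in transgenic skin. The difference in log2 change was 5.30 ± 0.92 for Krtap4-16 (SE, adjusted p = 0.000842 by limma), 5.23 ± 0.53 for Krtap8-1 (adjusted p = 1.1e-05) and 1.01 ± 0.24 for Krtap12-1 (adjusted p = 0.00691). It was 2.59 ± 0.81 for Krtap15 (adjusted p = 0.0306). The Krtap12-1 value is that of its brighter probe set. The dimmer one, fitted separately without the filter, gave 2.07 ± 0.50 (adjusted p = 0.015 by limma). Krtap14 had a difference of 1.33 ± 0.52 and did not pass (adjusted p = 0.0768). Without the filter, where 8.79% of all genes had a higher change, the same 4 genes passed, with an adjusted p of 0.045 for Krtap15, and Krtap14 did not (adjusted p = 0.0967). This difference and the comparisons above all rest on the same transgenic day 7 arrays, so they are not separate evidence.

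Single arrays decided part of this. Krtap14 passed without transgenic day 7 replicate 3 (log2 1.80, adjusted p = 0.00314), the lowest of the 3 arrays. The Krtap15 difference missed the threshold on removal of any of 7 arrays. It was 2.41 (adjusted p = 0.0966) and 2.76 (adjusted p = 0.0592) with replicate 1 and then replicate 2 of transgenic day 0 left out, and 2.51 (adjusted p = 0.0607) and 1.87 (adjusted p = 0.0512) with replicate 1 and then replicate 2 of transgenic day 7 left out. It was 2.54 (adjusted p = 0.0529) and 2.50 (adjusted p = 0.0565) with replicate 1 and then replicate 3 of wild-type day 0 left out. Omission of replicate 2 of wild-type day 7 gave 2.05 (adjusted p = 0.139). It also did not pass when only the groups compared were fitted (adjusted p = 0.0646) or when each probe set was fitted separately (adjusted p = 0.0543). Krtap12-1 lost its call on the intensities as deposited (0.91, adjusted p = 0.103).

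At day 1 none of the 5 genes passed. For transgenic day 1 against transgenic day 0, where 10.8% of all genes changed, none had an unadjusted p under 0.05 by limma (adjusted p from 0.762 to 0.95). None passed for transgenic day 1 against wild-type day 1, where 1.3% of genes changed in either direction, and 1 had an unadjusted p under 0.05. That gene was Krtap12-1, whose brighter probe set read 272, 236 and 252 at transgenic day 1 against 392, 400 and 323 at wild-type day 1. Its log2 change was -0.49 ± 0.15 (SE, adjusted p = 0.101 by limma). The dimmer probe set, fitted separately without the filter, changed by -0.325 ± 0.319 (adjusted p = 0.621 by limma). Before treatment, transgenic day 0 against wild-type day 0 gave no call among the 5 genes (0.011% of all genes changed), and none had an unadjusted p under 0.05 by limma (adjusted p = 0.994 for each). The genotype difference in the change to day 1 gave no call either (0.287% of all genes changed). By limma, 1 gene, Krtap12-1, had an unadjusted p under 0.05 there by its brighter probe set (log2 -0.52 ± 0.23, SE, adjusted p = 0.294). The dimmer one, fitted separately, gave -0.13 ± 0.48 (adjusted p = 0.928 by limma).

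Wild-type skin at day 1 held the highest values of Krtap12-1 outside transgenic day 7, and of Krtap8-1, which was below the 40th percentile there. The 3 wild-type day 1 arrays of Krtap8-1, 86.6 to 114, lay above the 53.9 to 73.0 of wild-type day 0, and those of Krtap12-1, 323 to 400, above 242 to 310. Groups that do not overlap in this direction occurred for 18.3% of all genes. None of the 5 genes passed the test, where 22.3% of all genes changed, and 1, Krtap12-1, had an unadjusted p under 0.05 by limma. The log2 change was 0.48 ± 0.33 for Krtap8-1 (SE, adjusted p = 0.317 by limma) and 0.43 ± 0.15 for Krtap12-1 (adjusted p = 0.051). These Krtap12-1 values are those of its brighter probe set. The dimmer one overlapped, with 22.5, 32.8 and 72.0 at wild-type day 1 against 30.5, 27.9 and 41.3 at wild-type day 0. Fitted separately without the filter, it changed by 0.14 ± 0.32 (adjusted p = 0.815 by limma). By the brighter probe set, Krtap12-1 stood at the threshold. It passed without wild-type day 0 replicate 3 (0.54, adjusted p = 0.0352) and without wild-type day 1 replicate 3 (0.52, adjusted p = 0.042). It also passed without transgenic day 7 replicate 2 (0.43, adjusted p = 0.0246). Without transgenic day 7 replicate 3, both Krtap12-1 (adjusted p = 0.0161) and Krtap8-1 (adjusted p = 0.019) passed, although that array is in neither group. Wild-type day 7 against wild-type day 0 gave no call among the 5 genes, with none at an unadjusted p under 0.05 by limma, where 11.4% of all genes changed (adjusted p from 0.465 to 0.994).

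In the order of group means, transgenic day 7 was highest for all 5 genes. For the brighter Krtap12-1 probe set, wild-type day 1 came next, with a mean of 372 ± 42.2 (SD, n = 3). The means of the 4 groups below ran from 247 to 270. For the other 4 genes the arrays outside transgenic day 7 were below the 40th percentile, and no order is given among those groups. Their group means ran from 6.69 to 25.8 for Krtap4-16, from 62.3 to 99.9 for Krtap8-1, from 31.0 to 54.5 for Krtap14 and from 19.5 to 32.6 for Krtap15.

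The 3 transgenic day 7 arrays differed from each other in the same order in each probe set. Replicate 2 was highest and replicate 3 lowest in all 6, an order found in 16.9% of all genes and in 25% of the 1683 genes higher at transgenic day 7 than at transgenic day 0. The log2 range over the 3 arrays was 3.38 for Krtap4-16, 3.03 for Krtap15, 2.04 for Krtap8-1, 1.94 for Krtap14 and 0.75 for Krtap12-1. Its median was 0.227 over all genes. Replicate 3 lay below the mean of the 3 arrays by a median log2 deviation of -1.22 over the 5 genes and -1.07 over 12 hair shaft keratins. The deviation was -0.48 over 8 genes of hair fibre hardening and cell adhesion. It was -0.23 over 5 inner root sheath genes and -0.12 over 14 hair matrix transcription factors. The same array lay at 0.09 for dividing-cell genes, -0.17 for melanocyte markers, 0.44 for macrophage markers and 0.01 over all genes. It lay at 0.25 for fat cell, 0.23 for endothelial, 0.18 for fibroblast and 0.11 for skeletal muscle markers. For sebaceous gland markers it lay at -0.16, and for T cell, basal and suprabasal markers between -0.02 and -0.01. Like those of fibroblasts, fat cells, skeletal muscle and endothelium, summed macrophage markers were highest on replicate 3, where the keratin-associated protein genes were lowest. The macrophage sums were 10257, 10199 and 17135 on the 3 arrays. The Gapdh 3'/5' ratio, a sign of RNA quality, was 0.915, 0.932 and 0.911 on them, within the 0.884 to 1.26 of all arrays. Whether any of these values had a part in the spread was not tested.

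**Figure D3:**
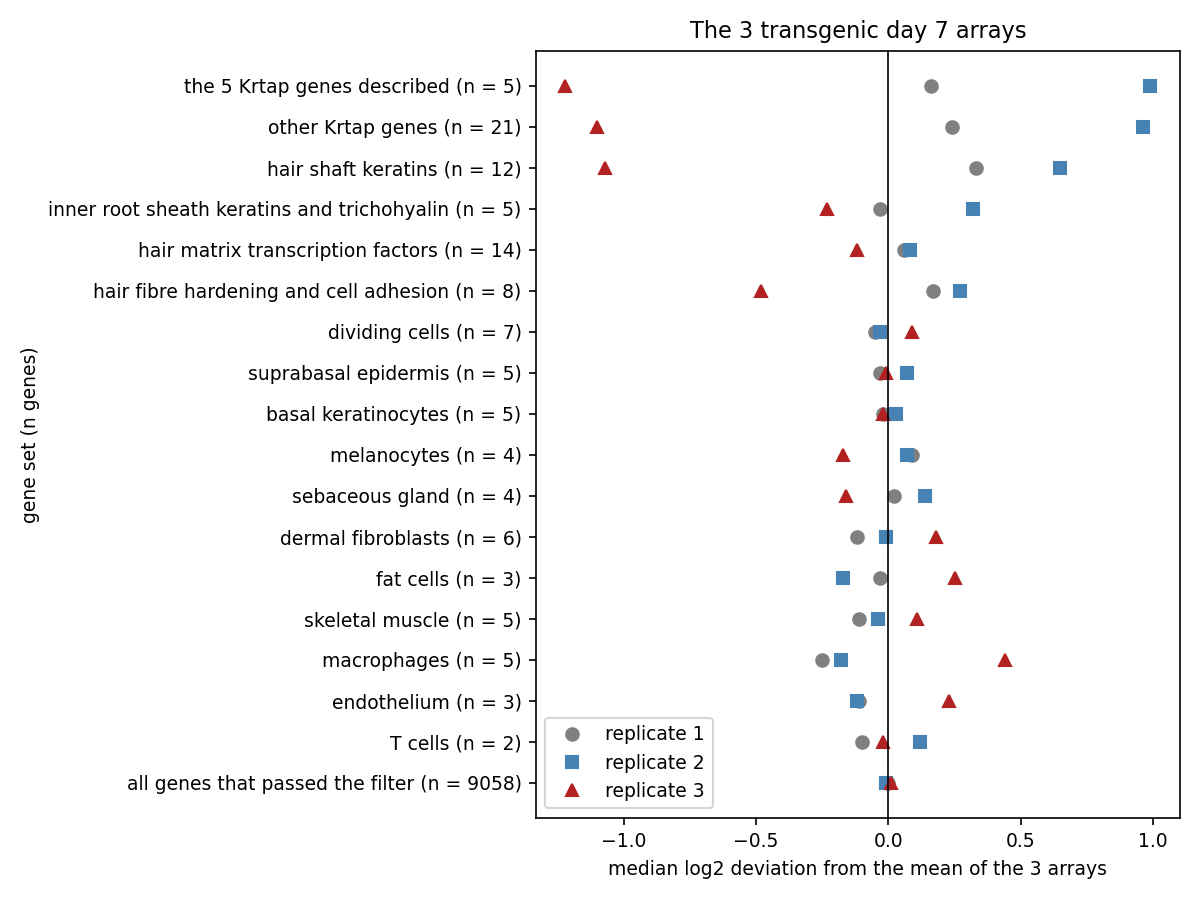
Median log2 deviation of each transgenic day 7 array from the mean of the 3, for each gene set (n genes in brackets). Replicate 3 is below -1 for the 5 genes, the other Krtap genes and the hair shaft keratins, and near 0 for all genes.

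Of 56 Krtap genes in RefSeq, 26 had a probe set of their own, the 5 genes and 21 others. In the fit without the filter, 15 of the 21 others rose at transgenic day 7 against transgenic day 0 (14.4% of all genes rose), none fell, and 6 did not pass. Their median log2 change was 1.90, against 0.0359 over all genes. Krtap3-1, on chromosome 11 with Krtap4-16, read 1873, 2730 and 490 at transgenic day 7, against 5.20 and 4.75 at transgenic day 0, a log2 change of 5.24 ± 0.44 (SE, adjusted p = 8.3e-07 by limma). Krtap4-16 had changed by 5.29. All 4 others on chromosome 11 rose, as did 3 of 3 on chromosome 7, the 1 on chromosome 1, and 7 of 13 on chromosome 16. The 6 that did not pass, all on chromosome 16, were Krtap13, Krtap19-1, Krtap19-2, Krtap19-4, Krtap19-5 and Krtap6-3, with log2 changes between -0.30 and 1.28. The filter on dim probe sets was passed by 5 of the 13 on chromosome 16 and by none of these 6. Their means at transgenic day 7 ran from 2.32 to 102, so a change in them may have gone unmeasured. Of the 21, 11 had their 3 transgenic day 7 arrays above all others (12.1% of all genes without the filter), and 19 had replicate 2 highest and replicate 3 lowest (16.6%). The change to day 7 differed between the genotypes for 10 of the 21 (8.79%). None was called for transgenic day 1 against transgenic day 0 (6.62% of genes changed), wild-type day 1 against wild-type day 0 (15.4%) or wild-type day 7 against wild-type day 0 (7.35%). Krtap6-5 rose by 2.36 on the log2 scale, but its replicate 3 array (36.8) was below the highest other array (38.7).

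**Figure D4:**
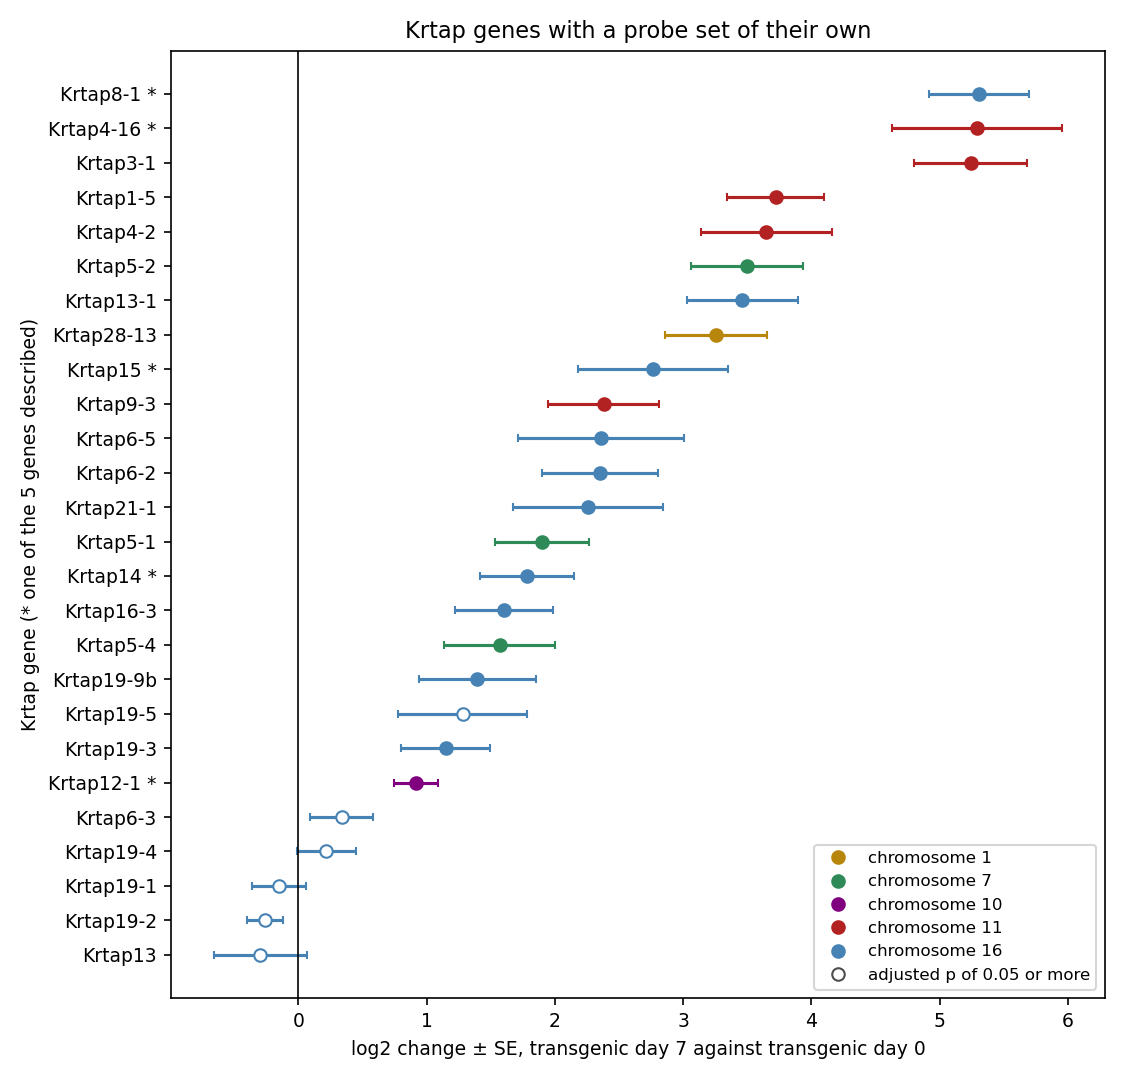
Log2 change ± SE at transgenic day 7 against transgenic day 0 of the 26 Krtap genes with a probe set of their own, coloured by chromosome, open points for an adjusted p of 0.05 or more and asterisks for the 5 genes described. Filled points run to 5.31, and the 6 open points are all on chromosome 16 and did not pass the filter on dim probe sets.

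Genes with roles close to those of the keratin-associated proteins were set beside them, from lists chosen with earlier results of these data known. In the fit without the filter, 14.4% of all genes rose at transgenic day 7 against transgenic day 0. Of 12 measured hair shaft keratins, the filament proteins that the 5 genes' products surround, 11 rose and none fell, with Krt35 changed by 5.44, Krt33a by 5.88 and Krt31 by 4.65 on the log2 scale. All 5 measured inner root sheath genes rose, among them Krt25 (7.89), Krt71 (6.02) and Tchh (5.29). Of 14 hair matrix transcription factors, 10 rose and 1 fell, with Msx2 at 2.73 and Dlx3 at 2.16. The one that fell was Gata3, by 0.36 on the log2 scale, a factor of the inner root sheath (named after its value was seen). Of 8 measured genes of hair fibre hardening and cell adhesion, 4 rose, including S100a3 (5.17) and Padi3 (4.51), which code for a calcium-binding protein and a peptidyl-arginine deiminase of the hair. All 7 measured genes of dividing cells rose, among them Mki67 at 2.24. The median over all genes was 0.0359. Unlike the 5 keratin-associated protein genes, dividing-cell genes also rose at day 1. Of the 7, 6 rose at transgenic day 1 against transgenic day 0, where 4.2% of all genes rose. At wild-type day 1 against wild-type day 0, 5 rose (7.21% of genes).

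Markers of other cell types were tested in the fit without the filter, where 14.4% of all genes rose and 14.6% fell at transgenic day 7 against transgenic day 0. A count of 1 marker in a list is near those shares. All 4 measured melanocyte markers rose, with summed intensities of 6816 to 7878 at transgenic day 7 against 665 to 1229 at transgenic day 0 and 845 to 1003 at wild-type day 7. All 3 measured fat cell markers fell, with 4973 to 6135 at transgenic day 7 against 13158 to 15672 at transgenic day 0 and 8662 to 13581 at wild-type day 7. Of 5 skeletal muscle markers 4 fell, with 25977 to 33469 at transgenic day 7 against 44437 to 49589 at transgenic day 0. All 3 endothelial markers fell, with 483 to 638 at transgenic day 7 against 889 to 941 at transgenic day 0. Both T cell markers fell, with 257 to 311 at transgenic day 7 against 506 to 580 at transgenic day 0. Of 5 basal keratinocyte markers 3 fell, with 24699 to 25737 at transgenic day 7 against 29157 to 33881 at transgenic day 0. Of 5 suprabasal markers 1 rose and 1 fell, with 31319 to 34389 at transgenic day 7 against 35794 to 40209 at transgenic day 0. Of 6 fibroblast markers 1 rose and 1 fell, with 40707 to 49773 at transgenic day 7 against 41002 to 44550 at transgenic day 0. Of 4 sebaceous gland markers 1 fell, with 12930 to 14991 at transgenic day 7 against 15968 to 16446 at transgenic day 0. None of 5 macrophage markers passed against transgenic day 0, with 10199 to 17135 at transgenic day 7 against 11025 to 11792 at transgenic day 0. All 5 were lower at transgenic day 7 than at wild-type day 7, where they summed to 21728 to 23024 (15.1% of all genes were lower). Against transgenic day 1, where they summed to 15522 to 20847, 4 were lower (16.4% of genes). All 5 were higher at wild-type day 7 than at wild-type day 0 (3.63% of genes), and the change to day 7 was lower in transgenic skin for 3 (7.71%). No marker was at 0. Their part in the change of the keratin-associated protein genes was not tested. In these bulk samples, more cells of a type and more RNA per cell cannot be told apart.

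The genes whose profile was most like the mean profile of the 5 genes were found over 9053 other tested genes by the root-mean-square difference of centred log2 values over 16 arrays. The closest was Krtap28-13 (0.174), followed by Gm11567 (0.207), Krtap5-2 (0.217), Ctse (0.264) and Krt82 (0.268). The median over all those genes was 1.314. Krtap13-1, Krtap4-2 and Krt81 came next, between 0.277 and 0.324. Among the 5 genes, Krtap15 was nearest to the mean profile (0.276) and Krtap12-1 farthest (0.944). Krtap14 (0.608), Krtap4-16 (0.792), Krtap8-1 (0.852) and Krtap12-1 lay farther from it than every other gene named here. The measure takes in the size of a change, so these neighbours match the average of the 5 genes rather than each of them.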

How the data were processed

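Total RNA of whole skin was hybridised to Affymetrix Mouse 430 A arrays, per the labels. The deposited values are linear intensities per probe set, 1 column for each of the 16 arrays; which software summarised them the sources used here do not say. Each array was scaled to the mean of the arrays' 2% trimmed means (359 to 548, factors 0.825 to 1.26). Values were then transformed as log2(intensity + 32). Of 22690 probe sets, 64 are controls, 20380 have 1 symbol, 691 several, and 1555 are not listed in the platform annotation. Probe sets above the 40th percentile of at least 2 arrays were kept (15058, of which 13882 have 1 symbol), and the brightest represented each of 9058 genes. A fit without the filter covered 12393 genes. limma 3.58.1 (R 4.3.3, eBayes with trend) fitted 6 groups over 16 arrays with 10 residual degrees of freedom and 10 comparisons, each adjusted by Benjamini-Hochberg. The number of arrays limits the precision. The fit was tested on simulated data.

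Genes outside the 5 were named by rule. These were the Krtap genes with the largest absolute changes, the called genes of each list with the smallest p, and those nearest in profile. The Krtap genes that did not pass and Gata3 were named in addition. The members and lists were chosen with earlier results of these data known. Alternatives were 10 settings (quantile scaling, deposited values, added values of 8 and 128, other filters, probe set rules, fewer groups and a replicate block) and leaving out each of the 16 arrays. Promoters and positions came from RefSeq (GRCm38.p6). Same-numbered arrays of different groups did not deviate together (r from -0.252 to 0.192 over 36 pairs), so the replicate numbers were not taken as pairs.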

Additional observations from a re-analysis of the deposited data

Results flagged for a closer look

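The change to day 7 differed between transgenic and wild-type skin for 4 of the keratin-associated protein genes, by an interaction term in the limma fit. The difference in log2 change was 5.3 for Krtap4-16, 5.23 for Krtap8-1, 1.01 for Krtap12-1 and 2.59 for Krtap15. For Krtap12-1 the size depended on the probe set, since the dimmer one gave 2.07 when fitted separately. Over all genes tested, 12.1% had a higher change in transgenic skin, and 8.79% without the filter. The Krtap15 call was lost in 9 alternatives, 7 of which leave out 1 array, and the Krtap12-1 call on the values as deposited. All 5 genes, Krtap14 included, were higher at transgenic day 7 on 3 of 3 arrays than on any array of the other groups. Of all genes, 14.8% showed such a separation (12.1% without the filter). For the brighter Krtap12-1 probe set it was only 403 against 400. The groups hold 2 or 3 arrays, too few for a test of single arrays that stand apart.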

How the results depend on the processing

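Over 26 settings and a separate fit of every probe set, 1340 values of the 5 genes were recomputed. Of these, 1318 kept their side of the threshold, 10 gained the threshold, 12 lost it and none turned direction with a call. Direction was compared only where a value passed, so the 1318 include uncalled values that turned direction. For Krtap15 at wild-type day 7 against wild-type day 0, leaving out 1 array gave log2 changes from -0.357 to 0.717. Under the stricter filter (60th percentile on at least 3 arrays) only 3 of the 5 genes were fitted, and 3 passed against transgenic day 0, 3 against transgenic day 1 and 3 against wild-type day 7; Krtap14 and Krtap15 were not fitted there, by the filter's construction. For wild-type day 1 against wild-type day 0, where none had passed, 1 gene passed with 8 added, with the stricter filter and with only the groups compared; leaving out 1 array gave 0 to 2. Leaving out 1 array gave 3 to 5 genes for the genotype difference to day 7, 4 to 5 against wild-type day 7, 5 against transgenic day 0 and day 1, and 0 elsewhere.

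An added value 4 times smaller or larger than 32 moved the log2 change against transgenic day 0 to 6.66 or 3.63 for Krtap4-16, 5.67 or 4.42 for Krtap8-1, 2.23 or 1.05 for Krtap14 and 3.34 or 1.81 for Krtap15. On the values as deposited the median log2 change of all genes at transgenic day 7 against transgenic day 0 was -0.134, against 0.00657. Of the calls, 29.3% were higher, against 48.1%. With a replicate block, 5 genes passed for the genotype difference to day 7, Krtap14 among them (1.68, adjusted p = 0.0273); the block changed no other count.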
